A study of Mus musculus with 8 samples.

Results

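Transcription factors that hold spermatogonial stem cells (SSCs) in the self-renewing state were followed through 2 days of retinoic acid (RA), nutrient restriction (NR) or both. The group was defined by gene name and held 10 genes, *Etv5*, *Bcl6b*, *Lhx1*, *Pou3f1*, *T*, *Id4*, *Zbtb16*, *Sall4*, *Taf4b* and *Pou5f1*, of the 55421 genes in the deposited count table. All 10 were expressed well enough to be tested, among 20477 genes tested in all. The cells were cultured mouse spermatogonia of C57BL/6XDBA/2 (F1 hybrid) background, derived per the study's methods from pups 6 days old and grown on irradiated embryonic fibroblasts, which can add their own RNA to a library. Vehicle cells (Veh) were kept in complete SSC medium, RA cells received 100 nM RA in that medium, NR cells were kept in 10% complete medium and 90% Earle's balanced salt solution (EBSS), and NRRA cells received 100 nM RA in the NR medium. Each group had 2 libraries, stated by the study to be independent biological replicates. NR diluted every component of the complete medium, its growth factors GDNF and FGF2 included, so nutrients and growth factors cannot be told apart in NR and NRRA.

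SSCs self-renew under GDNF, a niche growth factor that signals through the receptor RET and its co-receptor GFRA1, together with FGF2. In cultured SSCs these signals keep up the transcription of *Etv5*, *Bcl6b*, *Lhx1*, *Pou3f1* and *T*. *Id4*, *Zbtb16*, *Sall4*, *Taf4b* and *Pou5f1* also mark or maintain undifferentiated germ cells and are less closely tied to GDNF. RA, the active form of vitamin A, is the signal that moves spermatogonia into differentiation and, later, into meiosis.

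Levels are given as CPM, read counts scaled to a common library total with TMM factors. The totals ranged from 19261333 to 30023585 counts. A gene passed the test at an adjusted p under 0.05 (edgeR's quasi-likelihood test with Benjamini-Hochberg adjustment over all genes tested), and it was called when its fold change was also at least 2. With 2 libraries per group, the libraries of 2 groups can lie apart without passing this test, as RA and Veh did for *Taf4b* (adjusted p = 0.271). The share of all genes whose libraries lay apart was not counted. The 5 germ cell markers (*Ddx4*, *Dazl*, *Dnd1*, *Mael*, *Tdrd1*) were present in every library, with a summed level of 692 to 717 CPM in Veh, 750 to 816 in RA, 866 to 898 in NR and 861 to 889 in NRRA. *Dazl* was the largest part of the sum (log2 0.45 with RA and 0.58 with NRRA). By the adjusted p alone, 2 of the 5 rose and 3 fell with RA, and 4 rose with NR. With NRRA, 2 rose and 3 fell. Their median log2 fold changes were -0.29 with RA, 0.26 with NR and -0.15 with NRRA. Scaling to these markers used the mean of their log2 levels, not the sum. The 7 fibroblast markers (*Col1a1*, *Col1a2*, *Col3a1*, *Postn*, *Dcn*, *Lum*, *S100a4*) summed to 8607 to 8889 CPM in Veh, 7267 to 7869 in RA, 19244 to 20257 in NR and 17533 to 18081 in NRRA, and none was at 0. Of these 7 markers, 0 were called in RA vs Veh, 4 were called higher and 0 lower in NR vs Veh, and 3 were called higher and 1, *S100a4*, lower in NRRA vs Veh (log2 -2.32). *S100a4* also fell with NR (-0.87), and *Lum* fell with NRRA (-0.74), while *Col1a1*, the most abundant marker, rose by 1.07 and 1.02. The part of the feeder cells in the results on NR and NRRA was not tested. Values scaled to the germ cell markers are given beside each member's change with NR, and beside any other of its results that this scaling moved across the threshold of the adjusted p. In bulk RNA, fewer cells of a type and less RNA per cell cannot be told apart.

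The promoters of the members with the largest decreases under NRRA (*T*, *Lhx1*), of *Etv5*, which RA lowered more under NR, of *Pou5f1*, which fell with RA in both media, and of *Id4*, which was below Veh in RA but not in NRRA, are shown for comparison of their sequence. Each is 250 bases before and 50 bases after a RefSeq transcription start on GRCm38.p6, read 5′ to 3′ on the gene's strand. Promoter windows were held for 5 of the 10 members, those printed here. The coordinates are chr17:8434173-8434472 (plus strand) for *T*, chr11:84525485-84525784 (minus) for *Lhx1*, chr16:22439521-22439820 (minus) for *Etv5*, chr17:35505782-35506081 (plus) for *Pou5f1* and chr13:48260866-48261165 (plus) for *Id4*. Capitals mark a match to one of the motifs searched.
T: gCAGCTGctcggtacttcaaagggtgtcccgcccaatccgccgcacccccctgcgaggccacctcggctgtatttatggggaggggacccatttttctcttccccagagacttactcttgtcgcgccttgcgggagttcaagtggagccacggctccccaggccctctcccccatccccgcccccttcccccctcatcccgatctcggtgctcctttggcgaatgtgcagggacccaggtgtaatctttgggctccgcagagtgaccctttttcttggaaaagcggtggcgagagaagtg
Lhx1: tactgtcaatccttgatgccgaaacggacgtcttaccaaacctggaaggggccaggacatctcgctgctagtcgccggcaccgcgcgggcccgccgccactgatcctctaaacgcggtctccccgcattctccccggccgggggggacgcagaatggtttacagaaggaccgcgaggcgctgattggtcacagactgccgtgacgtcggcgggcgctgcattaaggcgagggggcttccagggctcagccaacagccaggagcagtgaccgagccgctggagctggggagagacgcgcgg
Etv5: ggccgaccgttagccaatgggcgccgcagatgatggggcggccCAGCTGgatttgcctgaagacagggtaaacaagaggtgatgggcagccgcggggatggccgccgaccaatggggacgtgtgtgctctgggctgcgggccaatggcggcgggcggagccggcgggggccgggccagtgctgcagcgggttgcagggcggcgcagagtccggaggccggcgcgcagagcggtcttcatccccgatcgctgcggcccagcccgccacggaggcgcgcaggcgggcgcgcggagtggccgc
Pou5f1: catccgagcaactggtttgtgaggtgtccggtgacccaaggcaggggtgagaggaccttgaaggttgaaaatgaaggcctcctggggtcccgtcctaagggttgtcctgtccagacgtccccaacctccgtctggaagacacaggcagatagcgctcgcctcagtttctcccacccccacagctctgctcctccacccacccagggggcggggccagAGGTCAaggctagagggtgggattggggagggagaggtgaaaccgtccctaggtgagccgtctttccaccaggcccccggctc
Id4: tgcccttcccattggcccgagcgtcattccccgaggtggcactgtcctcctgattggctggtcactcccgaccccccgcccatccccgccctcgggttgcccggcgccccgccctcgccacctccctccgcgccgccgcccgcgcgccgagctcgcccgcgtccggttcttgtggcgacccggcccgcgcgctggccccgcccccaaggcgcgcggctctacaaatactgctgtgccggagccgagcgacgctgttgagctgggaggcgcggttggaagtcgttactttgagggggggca

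Both strands of these windows were searched for the retinoid receptor half-site AGGTCA, the ETS site CGGAAGT, the T-box half-site AGGTGTGA, the octamer ATGCAAAT and the E-boxes CACGTG and CAGCTG, none of which overlapped another at a match. The half-site AGGTCA was found once, in *Pou5f1*, 33 bases before the start, and 16.3% of the 32851 mouse promoter windows hold it. The E-box CAGCTG, also held by 16.3% of windows, was found in *T* at 249 bases and in *Etv5* at 207 bases before the start. The windows of *Lhx1* and *Id4* held none of these letters. Among all windows, the shares were 6.42% for the ETS site, 1.28% for the T-box half-site, 1.74% for the octamer and 7.15% for CACGTG, and none of these matched in the printed windows. A second start of *Etv5* (chr16:22438319-22438618) had no match, and a second start of *Pou5f1* (chr17:35508557-35508856) held 1 CAGCTG at 143 bases before the start.

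On GRCm38 (GENCODE M21), the genes lie as follows, *Etv5* (ENSMUSG00000013089) at chr16:22381309-22439719 on the minus strand, *Bcl6b* (ENSMUSG00000000317) at chr11:70224128-70229798 on the minus strand, *Lhx1* (ENSMUSG00000018698) at chr11:84518284-84525535 on the minus strand, *Pou3f1* (ENSMUSG00000090125) at chr4:124656807-124660655 on the plus strand, *T* (ENSMUSG00000062327) at chr17:8434423-8442496 on the plus strand, *Id4* (ENSMUSG00000021379) at chr13:48261228-48266026 on the plus strand, *Zbtb16* (ENSMUSG00000066687) at chr9:48654297-48836222 on the minus strand, *Sall4* (ENSMUSG00000027547) at chr2:168748332-168767943 on the minus strand, *Pou5f1* (ENSMUSG00000024406) at chr17:35506018-35510772 on the plus strand. In Veh, per kilobase of exon, the members ranged from 43.7 CPM per kb for *Etv5* and 38.4 for *Bcl6b* down to 3.71 for *Id4* and 2.94 for *T*. Under NRRA the order of these levels was different, with *Sall4* highest at 36.2 CPM per kb, *Taf4b* at 12.5 and *Pou3f1* at 10.7, and *T* lowest at 0.075. The plot of levels by library shows the 10 members in each of the 8 libraries.

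**Figure D1:**
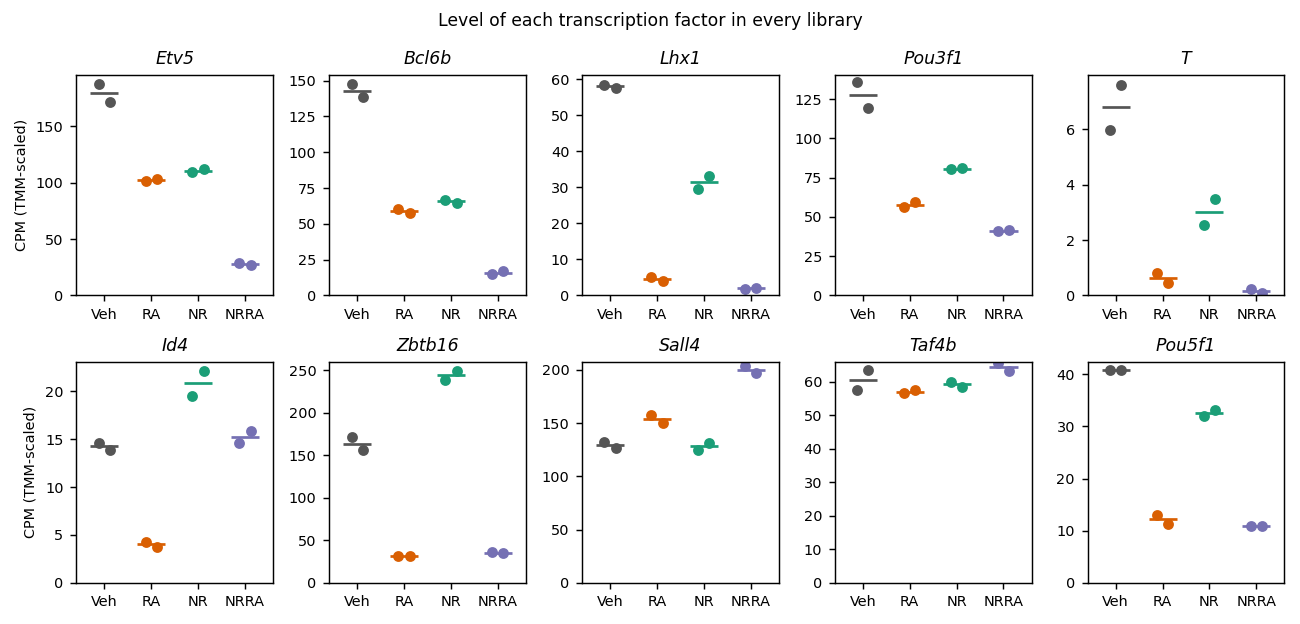
Level (CPM after TMM scaling, axis from 0) of each of the 10 genes in each library of Veh, RA, NR and NRRA. Points are the 2 libraries of a group and the bar is their mean. *Etv5*, *Bcl6b*, *Lhx1*, *Pou3f1* and *T* are highest in Veh and lowest in NRRA, with NR and RA between. The order of NR and RA depends on the scaling for *Etv5* and *Bcl6b*. *Id4* falls in RA and *Sall4* rises in NRRA.

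Among the GDNF-responsive factors, *Etv5*, an ETS family activator whose loss depletes the stem cell pool, measured 188 and 171 CPM in the Veh libraries, 101 and 103 with RA, 109 and 112 with NR, and 28.5 and 27.3 with NRRA. Every treated library was below both Veh libraries, and NRRA was lowest by far. *Etv5* fell 1.76-fold with RA (log2 fold change -0.81 ± 0.05, SE, adjusted p = 9.71e-13), 1.62-fold with NR (-0.70 ± 0.05, adjusted p = 1.12e-11, and -1.01 with scaling to the germ cell markers) and 6.43-fold with NRRA (-2.68 ± 0.06, adjusted p = 3.15e-23). RA and NR alone left *Etv5* at levels whose difference did not pass the test (log2 0.12 in NR vs RA, 95% interval 0.01 to 0.22, adjusted p = 0.0647), and with scaling to the germ cell markers that difference was -0.29, with NR lower, and passed the test.

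*Bcl6b*, a BTB zinc finger repressor needed for SSC maintenance in culture, followed the same order. It measured 148 and 138 CPM in Veh, 60.0 and 57.6 with RA, 67.0 and 64.9 with NR, and 14.6 and 17.0 with NRRA. The decrease was 2.43-fold with RA, 2.17-fold with NR and 9.01-fold with NRRA (log2 -1.28, -1.12 and -3.17, each ± 0.06 to 0.07). With scaling to the germ cell markers the change with NR was -1.43. NR vs RA was 0.17 on the log2 scale (adjusted p = 0.0247) and -0.25 with scaling to the germ cell markers, so the order of RA and NR depends on the scaling for *Bcl6b*.

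*Lhx1* and *T* were the members that RA lowered most. *Lhx1*, a LIM homeodomain factor, measured 58.5 and 57.7 CPM in Veh, 5.25 and 4.02 with RA, 29.6 and 33.1 with NR, and 1.89 and 1.99 with NRRA. It fell 12.8-fold with RA, 1.84-fold with NR and 29.8-fold with NRRA (log2 -3.68 ± 0.10, -0.88 ± 0.07 and -4.90 ± 0.11), and the change with NR was -1.20 with scaling to the germ cell markers. *T*, which encodes the T-box factor brachyury, was the least abundant member, with 121 and 146 counts in Veh, 16 and 13 with RA, 53 and 92 with NR, and 7 and 3 with NRRA. These correspond to 5.99 and 7.61 CPM in Veh, 0.816 and 0.451 with RA, 2.55 and 3.49 with NR, and 0.250 and 0.0963 with NRRA. No NRRA library reached the level of an RA library for *T*.

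*T* fell 11.2-fold with RA and 39.0-fold with NRRA (log2 -3.49 ± 0.27 and -5.28 ± 0.32), with the wide errors of low counts. Its decrease with NR was 2.21-fold (log2 -1.15 ± 0.19, adjusted p = 2.33e-05) and was under 2-fold without Veh replicate 2 (log2 -0.95) or without NR replicate 1 (-0.94), and -1.46 with scaling to the germ cell markers. *T* was 3.47-fold lower in NRRA than in RA (log2 -1.80 ± 0.55, adjusted p = 0.00976), and this did not pass the test without RA replicate 1 (log2 -1.39, adjusted p = 0.117) or without NRRA replicate 2 (-1.25, adjusted p = 0.132). Early mesoderm, the embryonic tissue for which *T* is best known, had little signal here, since its markers *Mixl1*, *Mesp1* and *Tbx6* summed to 1.77 to 2.43 CPM in Veh, 3.06 to 3.61 with RA, 2.62 to 2.75 with NR and 3.07 to 3.53 in NRRA. Of these 3 markers, 1 was called higher in RA vs Veh and 0 in NR vs Veh or NRRA vs Veh.

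*Pou3f1*, a POU domain factor also known as OCT6, measured 136 and 120 CPM in Veh, 56.3 and 59.5 with RA, 80.4 and 81.2 with NR, and 40.9 and 41.6 with NRRA. With TMM scaling it kept the order Veh, NR, RA, NRRA, but its decrease under NRRA, 3.10-fold, was the smallest of these 5 factors. The log2 fold changes were -1.14 ± 0.06 with RA, -0.66 ± 0.06 with NR and -1.63 ± 0.06 with NRRA. With scaling to the germ cell markers the change with NR was -0.97, and NR vs RA, 0.48 with TMM, was 0.071 and did not pass the test. With a trend on GC content and gene length removed, the change with RA was -0.96, under 2-fold.

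Among the factors of undifferentiated germ cell identity, *Zbtb16*, which encodes the zinc finger repressor PLZF, measured 171 and 156 CPM in Veh, 31.8 and 31.8 with RA, 239 and 249 with NR, and 35.7 and 35.2 with NRRA. RA lowered it 5.15-fold (log2 -2.36 ± 0.06), whereas NR raised it 1.49-fold (0.58 ± 0.05, and 0.26 with scaling to the germ cell markers, which also passed the test). NRRA was 4.62-fold below Veh (-2.21 ± 0.05). NRRA was above RA by 0.16 (adjusted p = 0.0499), a difference that was -0.022 and did not pass the test with scaling to the germ cell markers.

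*Pou5f1*, which encodes OCT4, measured 40.8 and 40.9 CPM in Veh, 13.1 and 11.2 with RA, 32.0 and 33.1 with NR, and 10.9 and 10.9 with NRRA. It fell 3.39-fold with RA and 3.76-fold with NRRA (log2 -1.76 ± 0.08 and -1.91 ± 0.08), and 1.25-fold with NR (-0.33 ± 0.07, adjusted p = 0.000398, and -0.64 with scaling to the germ cell markers). NRRA and RA differed by -0.15 (95% interval -0.34 to 0.04, adjusted p = 0.219), and by -0.33, which passed the test, with scaling to the germ cell markers. Of 3 other pluripotency genes, *Nanog*, *Sox2* and *Tdgf1*, 0 were called in RA vs Veh or NR vs Veh, and 1, *Sox2*, was called lower in NRRA vs Veh (log2 -1.02). Their summed level was 14.1 to 14.7 CPM in Veh, 19.3 to 19.8 in RA, 12.6 at most in NR and 9.79 to 11.8 in NRRA.

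*Sall4*, a zinc finger factor that binds PLZF and is kept in differentiating spermatogonia, moved the other way. It measured 132 and 127 CPM in Veh, 158 and 150 with RA, 125 and 131 with NR, and 204 and 197 with NRRA. The NRRA libraries were above all others and the NR libraries overlapped Veh. *Sall4* rose 1.19-fold with RA (log2 0.25 ± 0.05, adjusted p = 0.000146) and 1.55-fold with NRRA (0.63 ± 0.05, adjusted p = 1.07e-11), and its change with NR was -0.02 (95% interval -0.12 to 0.08, adjusted p = 0.832). With scaling to the germ cell markers the change of *Sall4* with NR was -0.33 (adjusted p = 3.79e-06), so whether it fell with NR depends on the scaling.

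*Id4*, an inhibitor of helix-loop-helix factors that marks the most stem-like spermatogonia, measured 14.7 and 13.9 CPM in Veh, 4.23 and 3.78 with RA, 19.5 and 22.2 with NR, and 14.6 and 15.8 with NRRA. The RA libraries were below all others, the NR libraries above, and Veh and NRRA overlapped. The changes were a 3.60-fold decrease with RA (log2 -1.85 ± 0.12), a 1.46-fold increase with NR (0.55 ± 0.09, and 0.24 with scaling to the germ cell markers, which also passed the test), and 0.09 with NRRA (95% interval -0.10 to 0.29, adjusted p = 0.431). Against RA, *Id4* was 3.83-fold higher in NRRA (log2 1.94 ± 0.12), and against NR it was 1.37-fold lower (-0.46 ± 0.09). With the trend on GC content and gene length removed, its change in NRRA vs Veh was -0.12.

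*Taf4b*, a gonad-enriched subunit of the general factor TFIID, measured 57.6 and 63.5 CPM in Veh, 56.6 and 57.5 with RA, 59.9 and 58.5 with NR, and 65.5 and 63.1 with NRRA. With TMM scaling it passed no test against Veh, with log2 fold changes of -0.08 in RA (95% interval -0.20 to 0.04), -0.03 in NR (-0.15 to 0.09) and 0.09 in NRRA (-0.03 to 0.21). NRRA was above RA by 0.17 (adjusted p = 0.0164), a difference that was -0.0064 with scaling to the germ cell markers. With that scaling *Taf4b* fell with NR (log2 -0.35, adjusted p = 9.32e-06), NRRA was above NR by 0.35 (0.12 with TMM, adjusted p = 0.0888) and NR was below RA (-0.36), while RA vs Veh (0.012) and NRRA vs Veh (0.0053) did not pass the test.

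**Figure D2:**
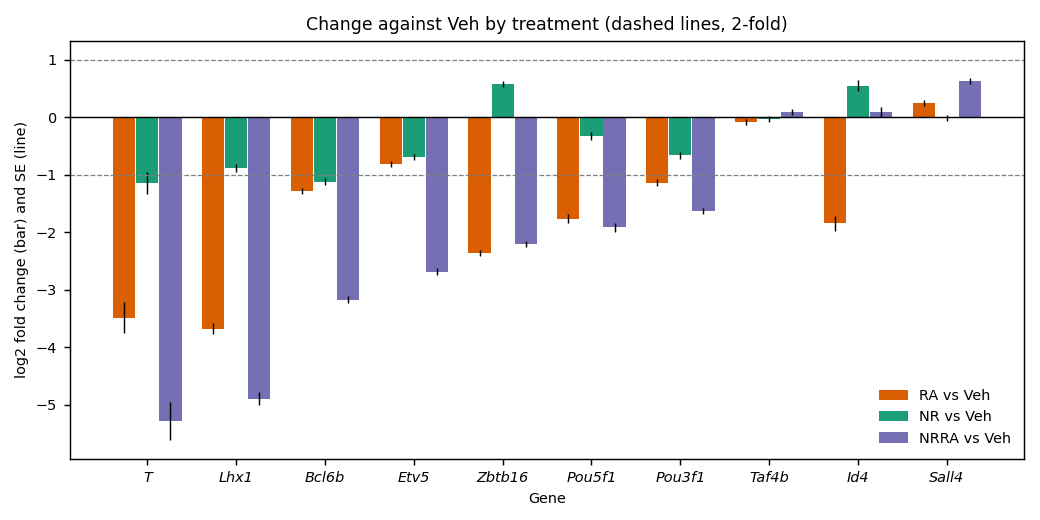
Log2 fold change against Veh (bars) with its SE (lines) for each of the 10 genes, with RA, NR and NRRA side by side. Dashed lines mark a 2-fold change. The bars of *T* and *Lhx1* under NRRA reach -5.28 and -4.90, and *Zbtb16* and *Id4* rise with NR and fall with RA.

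Counted over the group, 7 of 10 members were called lower in RA vs Veh (*Bcl6b*, *Lhx1*, *Pou3f1*, *T*, *Id4*, *Zbtb16*, *Pou5f1*), where 2.75% of all genes tested were called lower, and 0 were called higher, against 4.74% of all genes. In NR vs Veh, 2 members were called lower (*Bcl6b* and *T*, background 2.96%) and 0 higher (background 5.33%). In NRRA vs Veh, 7 were called lower (*Etv5*, *Bcl6b*, *Lhx1*, *Pou3f1*, *T*, *Zbtb16*, *Pou5f1*, background 6.02%) and 0 higher (background 9.91%). The 7 members called lower with RA and with NRRA thus differed in 1 gene each, *Id4* with RA and *Etv5* with NRRA. The median log2 fold change of the members was -1.52 with RA, -0.49 with NR and -2.06 with NRRA, against -0.019, 0.0057 and 0.030 over all genes tested.

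By the adjusted p alone, 8 members fell and 1 rose with RA (backgrounds 23.4% and 19.8%), 6 fell and 2 rose with NR (22.2% and 21.7%), and 7 fell and 1 rose with NRRA (28.7% and 30.1%). *Etv5*, *Bcl6b*, *Lhx1*, *Pou3f1*, *T* and *Pou5f1* fell with each single treatment and with both. *Zbtb16* fell with RA and NRRA and rose with NR, *Id4* fell with RA and rose with NR, and *Sall4* rose with RA and NRRA. *Taf4b* passed none of these tests. No member fell with both treatments only, with either scaling, although with TMM scaling *Etv5* reached a 2-fold decrease only in NRRA. With scaling to the germ cell markers, 4 members were called lower in NR vs Veh, with *Etv5* (log2 -1.01) and *Lhx1* (-1.20) added, and by the adjusted p alone 8 fell, *Sall4* and *Taf4b* among them, and 2 rose. That scaling moves the median of all genes in NR vs Veh to -0.31, and the share of called genes that were higher from 64.3% to 35.1%. Among the 20477 genes tested, it raised the number called lower from 606 to 1215 and cut the number called higher from 1092 to 658. The shares of all genes by the adjusted p alone were not counted with that scaling.

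Comparing the combined treatment with each part of it, 4 members were lower in NRRA than in RA (*Etv5*, *Bcl6b*, *Lhx1*, *T*, background 3.68%) and 1 was higher (*Id4*, background 4.61%). In turn, 6 members, *Etv5*, *Bcl6b*, *Lhx1*, *T*, *Zbtb16* and *Pou5f1*, were lower in NRRA than in NR (background 4.14%). In NR vs RA, 5 members were called higher (*Lhx1*, *T*, *Id4*, *Zbtb16*, *Pou5f1*, background 6.87%). These comparisons share libraries, so their counts are not independent of each other.

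Whether RA acted differently in complete and in NR medium was tested as the difference of 2 log2 fold changes, RA's effect under NR less its effect in complete medium, called the interaction here. 1 member was called lower, *Etv5* (1.46% of all genes), and 1 higher, *Id4* (0.786%). By the adjusted p alone, 3 interactions were negative (*Etv5*, *Bcl6b*, *Zbtb16*, background 6.58%) and 2 were positive (*Id4*, *Sall4*, background 6.37%). RA lowered *Etv5* by 0.81 on the log2 scale in complete medium and by 1.99 under NR, an interaction of -1.18 ± 0.08 (adjusted p = 2.26e-11). For *Bcl6b* the RA effects were -1.28 and -2.05 (interaction -0.77 ± 0.09, adjusted p = 7.35e-07), and for *Zbtb16* -2.36 and -2.78 (-0.42 ± 0.08, adjusted p = 0.000523). On the log2 scale the sum of the single effects was -1.51 for *Etv5* and -2.40 for *Bcl6b*, less than the decreases of -2.68 and -3.17 measured with both.

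*Id4* went the opposite way, with RA effects of -1.85 in complete medium and -0.46 under NR (interaction 1.39 ± 0.15, adjusted p = 2.82e-07). The increase of *Sall4* with RA was larger under NR, 0.64 against 0.25 (interaction 0.40 ± 0.07, adjusted p = 0.000138). For the other members the interaction did not pass the test, which does not show equal effects. Its 95% interval was -0.73 to 0.05 for *Lhx1*, -0.0028 to 0.34 for *Pou3f1*, -1.86 to 0.56 for *T*, 0.04 to 0.37 for *Taf4b* and -0.06 to 0.42 for *Pou5f1*, before adjustment for the number of genes. With scaling to the germ cell markers the interactions of *Pou3f1* (0.31, adjusted p = 0.0186) and *Taf4b* (0.34, adjusted p = 0.00942) passed the test, and the 5 named above kept their sign and passed it. The plot of the RA effect in both media places *Etv5* and *Bcl6b* below and *Id4* above the line of equal effects.

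**Figure D3:**
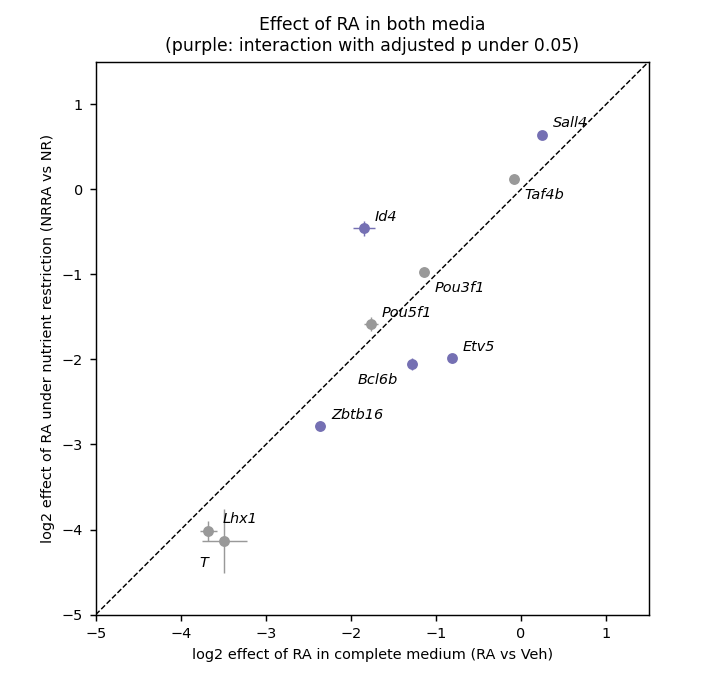
Log2 effect of RA in complete medium (RA vs Veh, horizontal) against that under nutrient restriction (NRRA vs NR, vertical), with SE lines, for the 10 genes. Points on the dashed line have equal effects. Purple points passed the interaction test (*Etv5* -1.18, *Bcl6b* -0.77, *Zbtb16* -0.42, *Sall4* 0.40, *Id4* 1.39) and grey points did not.

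Overlapping genes limit some members, since the strand setting of the counting is not given in the sources used here. An antisense gene covers 14.1% of the exon bases of *Pou5f1* (*Gm19553*), 9.5% of *Sall4* (*Gm14261*), 8.6% of *Pou3f1* (*Gm2164*) and 4.4% of *Id4* (*Gm49291*), and none covers the other 6. *Gm19553* stood at 37.2% to 41.4% of the mean CPM of *Pou5f1* in each group, and *Gm49291* at 7.92% to 9.17% of *Id4*. *Gm14261* and *Gm2164* stood at 3.36% to 4.12% of *Sall4* and 1.09% to 1.82% of *Pou3f1*. Reads of these pairs cannot be told apart if strand was not used.

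Members were compared by the distance between the 4 group means of log2 CPM, each gene centred on its own mean. The closest pairs were *Etv5* and *Bcl6b* (0.40), *Lhx1* and *T* (0.42), and *Sall4* and *Taf4b* (0.45). Genes that change little lie close by this measure, and neither *Sall4* nor *Taf4b* was called in any comparison. A small distance therefore does not by itself show a shared change. Among 16639 other tested genes with a mean of at least 1 CPM, those most like a member over the 4 groups of 8 libraries were *Nxph3* (0.31) and *Cmtm8* (0.32) for *Etv5*, *Rxrg* (0.21) and *Plvap* (0.29) for *Bcl6b*, *Tcl1* (0.53) and *Barhl2* (0.59) for *Lhx1*, and *Foxa2* (0.57) and *Syt6* (0.61) for *T*. For *Pou3f1* they were *Angptl2* (0.073) and *Adgrf1* (0.077), for *Pou5f1* *Acss1* (0.029) and the overlapping *Gm19553* (0.12), and for *Id4* the overlapping *Gm49291* (0.10) and *Ptgfr* (0.27). For *Zbtb16* they were *Cdh4* (0.26) and *Rragd* (0.38), for *Sall4* *Prx* (0.038) and *Shisa3* (0.044), and for *Taf4b* *Reps1* (0.013) and *Mnat1* (0.018). *Rxrg*, which encodes a retinoid X receptor, changed by -1.36 with RA, -0.92 with NR and -3.08 with NRRA.

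The receptors and feedback genes of the GDNF and FGF pathways, 12 genes, were mixed. Of these, 1 was called higher and 2 lower with RA, 0 and 4 with NR, and 1 and 7 with NRRA, with a median log2 fold change of -0.25, -0.59 and -1.59. Over all genes tested, 4.74% were called higher and 2.75% lower with RA, and 5.33% and 2.96% with NR. With NRRA the shares were 9.91% and 6.02%. These shares apply to the lists below as well. *Dusp6*, an ERK phosphatase that ERK signalling induces, changed by -0.98 with RA, -1.79 with NR and -4.16 with NRRA. The feedback inhibitor *Spry4* changed by -1.11, -1.43 and -3.43, the phosphatase *Dusp4* by -0.50, -1.96 and -2.74, and the GDNF receptor *Ret* by -2.15, -0.30 and -2.87. *Dusp6* and *Spry4* thus fell with each treatment, as *Etv5*, *Bcl6b* and *Lhx1* did. *Ret* fell mainly with RA, and its change with NR was smaller than that of *Lhx1* (-0.88). By the adjusted p alone, 4 of the 12 genes rose and 7 fell with RA (backgrounds 19.8% and 23.4%). *Spred2* (0.50) and *Dusp5* (0.15) were among those that rose. Among the FGF receptors, *Fgfr3* was the gene called higher with NRRA (1.55), *Fgfr2* rose by 0.91, under 2-fold, and *Fgfr1* changed by 0.07 (adjusted p = 0.15).

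Among 18 other transcriptional regulators of undifferentiated spermatogonia, 5 were called lower and 0 higher with RA, 2 and 2 with NR, and 6 lower and 1 higher with NRRA (medians -0.41, 0.10 and -0.77). Of the 5 called lower with RA, *Pdx1* and *Neurog3* rest on few reads. They stood at 0.812 and 0.433 CPM in Veh, and the RA libraries held 0 or 1 count of *Neurog3*. *Egr3* (-4.26), *Egr2* (-3.84) and *Mycn* (-2.79) had the largest fitted decreases with NRRA after *Pdx1*, a homeodomain factor. *Pdx1* had 0 counts in both NRRA libraries and was at least 7.98-fold lower there than in Veh (0.812 CPM), taking 3 counts per library as the floor. *Sox3*, an SRY-related factor, was the gene called higher (1.05). *Egr2* and *Egr3* encode immediate early zinc finger factors. *Egr3* fell with NR (-1.74) more than with RA (-0.40), and *Egr2* with RA (-2.09) more than with NR (-0.46).

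Of 18 relatives of the members, 15 passed the expression filter (not *Pou3f2*, *Tbr1* and *Pou5f2*), and 2 were called lower with RA, 3 with NR and 7 with NRRA, with 0 called higher in each (medians -0.27, -0.33 and -0.66). The spalt factors *Sall1* (-2.38 with NRRA) and *Sall3* (-4.58) were lower, the opposite of *Sall4*. *Lhx5*, a close relative of *Lhx1*, changed by -2.95 with RA, -2.18 with NR and -3.98 with NRRA. *Etv1* and *Etv4*, the closest relatives of *Etv5*, changed by -2.24 and -2.23 with NRRA, and *Etv4* by -1.27 with NR and -0.10 with RA (adjusted p = 0.19). The inhibitors *Id1*, *Id2* and *Id3* were not called in any comparison with Veh. They changed by -0.70, -0.04 and -0.19 with RA, and by -0.57, 0.58 and 0.35 with NRRA. With NR they changed by -0.63, -0.05 and -0.44, whereas *Id4* rose by 0.55. The interactions of *Id1*, *Id2* and *Id3* were positive, as that of *Id4* was, and under 2-fold (6.37% of all genes had a positive interaction by the adjusted p). These were 0.77 for *Id1* (adjusted p = 1.62e-05), 0.67 for *Id2* (adjusted p = 0.00292) and 0.98 for *Id3* (adjusted p = 1.4e-08).

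**Figure D4:**
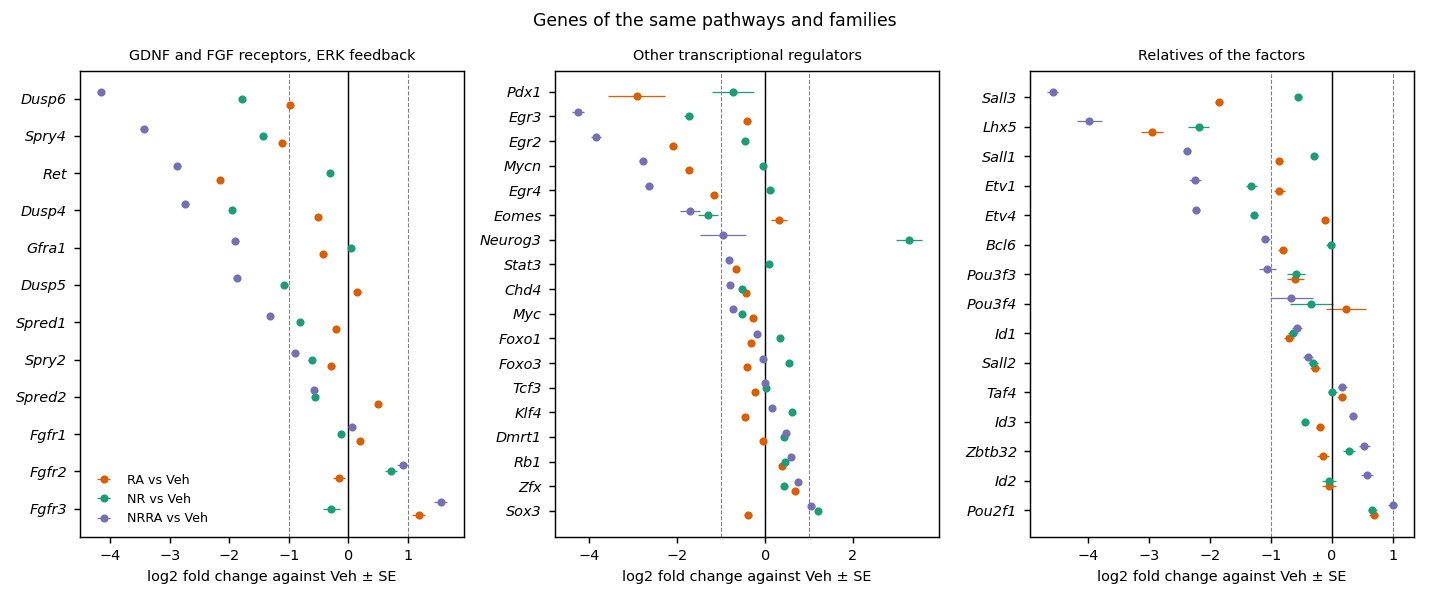
Log2 fold change against Veh ± SE for tested genes of the receptor and feedback list, the other regulators and the relatives, with RA, NR and NRRA as separate colours and dashed lines at 2-fold. *Pdx1* in NRRA and *Neurog3* in RA are left out because those libraries hold 0 or 1 count. *Dusp6* (-4.16), *Spry4* (-3.43), *Egr3* (-4.26) and *Sall3* (-4.58) lie far to the left under NRRA.

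Of 5 further markers of undifferentiated spermatogonia, *Gfra1*, *Ret*, *Nanos2*, *Nanos3* and *Lin28a*, 3 were called lower with RA, 0 with NR and 4 with NRRA. Their summed level was 457 to 489 CPM in Veh, 227 to 229 in RA, 458 to 465 in NR and 134 to 140 in NRRA. *Nanos2*, an RNA-binding repressor of differentiation, was at 3.46 CPM in Veh, 3.62 in NR, 0.0938 in RA and 0.0678 in NRRA, with 2 counts in each NRRA library. *Gfra1* fell with NRRA (-1.90), where its change with RA was -0.42 and with NR 0.04. Genes of differentiation and the retinoid response went the other way, with 5 of 9 called higher and 0 lower with RA, 3 higher and 0 lower with NR, and 5 higher and 1 lower (*Dmrtb1*, -1.38) with NRRA. *Stra8*, the RA-induced gatekeeper of meiosis, rose by 8.92 with RA, 3.44 with NR and 9.47 with NRRA. *Kit*, the receptor of differentiating spermatogonia, rose by 5.03, 1.91 and 5.82, and *Rarb*, an RA receptor, by 6.55 with RA and 6.78 with NRRA.

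Markers of other testis cells were low or mixed. Of 4 tested Sertoli cell markers, 1 (*Sox9*) was called lower in RA vs Veh, 0 in NR vs Veh, and 1 lower (*Sox9*, -2.16) and 1 higher (*Cldn11*, 1.58) in NRRA vs Veh, with sums of 35.9 to 38.7 CPM in Veh, 24.6 to 25.1 in RA, 42.3 to 45.4 in NR and 12.1 to 13.4 in NRRA. The 3 Leydig cell markers summed to 6.69 to 8.03 CPM in Veh, 12.3 to 13.9 with RA, 5.24 to 6.07 with NR and 6.40 to 6.61 in NRRA, and the 1 tested, *Star*, was not called against Veh. None of the germ cell markers was called against Veh.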

How the data were processed

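RNA of 8 libraries, 2 in each of 4 groups, was analysed from the deposited table of read counts per gene, whole numbers without normalization. The submitters' processing notes name bcl2fastq, STAR 2.6.1c, featureCounts 1.6.4 and the mm10 build. The strand setting and the annotation used for counting are not given in the sources used here. The methods describe stranded oligo dT libraries, and the labels and the methods name different kits. No column of the table lacked a sample.

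Groups came from the labels. The RA dose, the medium, the time and the age came from the study's methods. Replicate numbers are shared between groups, but the libraries did not deviate together (correlations of -0.054 to 0.035 over 16649 genes), so no block was used. Replicates differed beyond sampling noise (chi-square per gene of 1.58 to 3.93). Genes were filtered with filterByExpr, scaled with TMM and fitted with edgeR 4.0.16 in R 4.3.3 (quasi-likelihood, 1 coefficient per group, 8 libraries, 4 residual degrees of freedom, biological coefficient of variation 3.35%). The SE is the log2 fold change divided by the square root of F. Alternatives used DESeq2 1.42.0, the study's tool, other scalings and filters, no fold threshold, each library left out, a replicate block and, chosen after seeing the data, removal of a trend on GC content and gene length. Gene coordinates came from GENCODE M21 (GRCm38) and promoters from RefSeq. Figures were drawn with matplotlib 3.10.9. Simulated counts with 200 changed genes were tested, and the model called 200 of them in NRRA vs Veh with 1 false call among 19887 genes. The counts were drawn with the fitted dispersions, and each planted change was above 2-fold in a gene with ample counts. This checks that the code runs as intended. It cannot show how smaller changes, genes of low counts or real variation between cultures are handled.

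The 10 genes, the lists and the rule for named genes were chosen with earlier results of these data known. All 10 genes are named in the comparisons, with up to 4 genes per list called in NRRA vs Veh with the largest changes, genes that a result on a relative turns on, and the 2 genes nearest in pattern to each member. Other genes of the lists were named after their values were seen.

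With 19261333 to 30023585 counts per library, genes under 1 CPM rest on few reads, so *T*, *Pdx1* and *Nanos2* have wide counting errors.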

Additional observations from a re-analysis of the deposited data

Results flagged for a closer look

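For 5 of the 10 genes, the effect of RA differed between complete medium and nutrient restriction by edgeR's interaction test, and this difference is what marked them. By the adjusted p alone, 3 were negative, where 6.58% of all genes tested were, and 2 were positive, where 6.37% were. With scaling to the germ cell markers, *Pou3f1* (adjusted p = 0.0186) and *Taf4b* (adjusted p = 0.00942) passed the test as well, so the set depends on the scaling. The log2 effect of RA under NR minus that in complete medium was -1.18 for *Etv5* and -0.77 for *Bcl6b*, so RA lowered both more under NR. It was -0.42 for *Zbtb16*, whose decrease was larger under NR from a higher level. Its mean was 244 CPM in NR and 164 in Veh, against 35.4 in NRRA and 31.8 in RA. The interaction value was 1.39 for *Id4*, whose decrease with RA was smaller under NR, and 0.40 for *Sall4*, whose increase was larger. Each direction rests on 2 libraries per group.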

How the results depend on the processing

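Of 870 values of a member in a comparison under an alternative, 828 kept their direction and whether they were called, 5 lost a call, 24 gained one (22 of them without the fold threshold) and 13 changed sign. The setting without the fold threshold reuses the main fit, so no sign could change in it. Leaving it out, 780 of 800 values stayed the same. A value that crossed only the threshold of the adjusted p, without a change of call, counts as the same here. With scaling to the germ cell markers, the sign changed for *Etv5* NR vs RA (-0.29), *Bcl6b* NR vs RA (-0.25), *Zbtb16* NRRA vs RA (-0.022), *Taf4b* RA vs Veh (0.012), *Taf4b* NRRA vs RA (-0.0064) and *Taf4b* NR vs RA (-0.36). That scaling also called 4 members lower in NR vs Veh, where it called 1215 of all genes lower, against 606 with TMM. With the GC content and gene length trend removed, it changed for *Id4* NRRA vs Veh (-0.12) and *Sall4* NR vs Veh (0.055). Leaving out each library in turn gave 1 to 2 members called in NR vs Veh, and ranges of -0.038 to 0.042 for *Sall4* NR vs Veh, -0.13 to 0.0050 for *Taf4b* RA vs Veh, -0.083 to 0.052 for *Taf4b* NR vs Veh, -1.39 to -0.94 for *T* NR vs Veh and -2.58 to -1.25 for *T* NRRA vs RA. Without the fold threshold, the members called numbered 8 in NR vs Veh, 9 in NRRA vs RA, 8 in NR vs RA and 5 in the interaction. Over all genes it gave 4789 lower and 4048 higher in RA vs Veh, 4542 and 4443 in NR vs Veh, 5880 and 6171 in NRRA vs Veh, 3971 and 4283 in NRRA vs RA, 4535 and 4353 in NRRA vs NR, 4873 and 5026 in NR vs RA, and 1348 and 1304 in the interaction (main counts 298 and 161), since small changes then count. DESeq2 called 184 lower and 103 higher in the interaction, and the cause was not tested. With the replicate block, the members called were 7 in RA vs Veh, 2 in NR vs Veh, 7 in NRRA vs Veh, 5 in NRRA vs RA, 6 in NRRA vs NR, 5 in NR vs RA and 2 in the interaction, as without it. By Pearson correlation over 8 libraries, 3 of the 20 nearest genes were shared with those by distance.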
